A study of Homo sapiens with 6 samples.

Results

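The nuclear genes for respiratory complexes II, III, IV and V were examined in LX2, a line of human hepatic stellate cells, the liver cells that lay down collagen in fibrosis. Members were all protein-coding genes of the deposited expression table whose symbols begin with SDHAF, UQCR, COX4 to COX8 or ATP5, together with SDHA, SDHB, SDHC, SDHD and CYC1. This rule gave 55 of the 60623 genes in the table: 8 of complex II, 10 of complex III, 17 of complex IV and 20 of complex V. Expression was measured by RNA sequencing of total RNA in 3 libraries of cells transfected with an siRNA against SHMT2 (siSHMT2, labelled as SHMT2 knockdown) and 3 libraries transfected with a control siRNA (siNC, labelled as WT). All 6 were LX2 cells grown in medium with 2% serum and sampled 36 h after transfection, and no source used here gives the siRNA sequences. Each library held 14722344 to 15669139 reads as recovered from the deposited FPKM (fragments per gene length and sequencing depth).

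The respiratory chain of the inner mitochondrial membrane passes electrons from metabolic fuels to oxygen and pumps protons. Complex II (succinate dehydrogenase) oxidises succinate and hands electrons to coenzyme Q, complex III (cytochrome bc1) passes them to cytochrome c, complex IV (cytochrome c oxidase) reduces oxygen, and complex V (ATP synthase) makes ATP as protons flow back. Complex II is encoded in the nucleus alone, whereas complexes III to V combine nuclear subunits with a few encoded by mitochondrial DNA, so their assembly draws on both genomes. SHMT2, the serine hydroxymethyltransferase of mitochondria, makes glycine from serine and passes a carbon unit to folate. In other human cell lines its loss has been reported to impair translation of the mitochondrially encoded subunits. The comparison therefore asked whether transcripts of the nuclear partners differed after the knockdown.

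SHMT2 itself had 2.25, 2.10 and 2.42 FPKM in the siSHMT2 libraries, against 40.8, 56.3 and 45.1 FPKM in the siNC libraries. The mean in siSHMT2 cells came to 4.77% of that in siNC cells (log2 difference -3.88, SE 0.132, limma adjusted p = 2.08e-05, and two-sided exact permutation p = 0.1, the smallest that 3 against 3 libraries can give). Of 12 stellate or mesenchymal markers, 8 averaged at least 1 FPKM, among them COL1A1, VIM and TIMP1, but DES, ACTA2, LRAT and RGS5 lay below it. The 5 hepatocyte markers, ALB included, and the 3 endothelial markers all lay below 1 FPKM. CD14 was at 15.3 FPKM and KRT7 at 1.94 FPKM, with the other macrophage and cholangiocyte markers below 1 FPKM.

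Few nuclear respiratory genes passed the test for a difference between siSHMT2 and siNC cells. Genes were tested with limma on log2(FPKM + 1) where their mean over the 6 libraries was at least 1 FPKM, with Benjamini-Hochberg adjustment over all 10865 genes tested and a threshold of 0.05. The filter kept 47 of the 55 members, namely all 8 of complex II, all 10 of complex III, 12 of complex IV and 17 of complex V. Of these 47 genes, 2 passed the test (4.26%), whereas 15.9% of all tested genes passed. ATP5PB, a subunit of the ATP synthase stalk, was the 1 member that rose, against a background of 6.07% of all tested genes. COX7A2L, a factor that joins complexes III and IV in supercomplexes, was the 1 member that fell, against a background of 9.85%. Without adjustment 8 of 47 members (17.0%) had p under 0.05, as did 30.3% of all tested genes. The 2 groups did not overlap for 10 of 47 members (21.3%), whereas they did not overlap for 36.4% of all tested genes.

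COX7A2L (chromosome 2, 42333546 to 42425088, minus strand, coordinates as in the deposited table) had 10.9, 12.5 and 10.9 FPKM in siSHMT2 cells, against 17.6, 16.5 and 15.3 FPKM in siNC cells. Every siSHMT2 library lay below every siNC library. The log2 difference was -0.49 (SE 0.103, 95% interval -0.73 to -0.25, limma adjusted p = 0.0177). It lost the call without siSHMT2 replicate 1 (adjusted p = 0.101) or siSHMT2 replicate 3 (adjusted p = 0.0875), with log2 differences of -0.46 in both. The call was also lost after rescaling every library to the same total per gene length, TPM (adjusted p = 0.129), with FPKM recomputed from the sums of recovered reads (adjusted p = 0.0675) and by limma voom on those reads (adjusted p = 0.0535).

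ATP5PB (chromosome 1, 111448864 to 111462773, plus strand) encodes subunit b, the rod of the peripheral stalk that holds the ATP synthase head still against the turning rotor. It had 51.4, 56.1 and 48.8 FPKM in siSHMT2 cells, against 41.3, 37.2 and 37.6 FPKM in siNC cells. All 3 siSHMT2 libraries were above all 3 siNC libraries, and the log2 difference was 0.42 (SE 0.109, 95% interval 0.17 to 0.67, limma adjusted p = 0.0378). The call was lost without siNC replicate 2 or 3, or without any 1 of the siSHMT2 replicates, with adjusted p between 0.0533 and 0.158. It was also lost with TPM (adjusted p = 0.0651) and without the filter on low genes (adjusted p = 0.0602). ATP5PB overlaps WDR77 on the opposite strand, and no source used here says whether counting used strand. WDR77 moved the other way, with 8.968, 9.232 and 8.999 FPKM in siSHMT2 cells against 13.5, 18.3 and 14.6 FPKM in siNC cells (log2 difference -0.70, SE 0.123, limma adjusted p = 0.00858).

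Many respiratory promoters carry elements of the nuclear respiratory factor NRF1, of ETS factors such as GABP (the nuclear respiratory factor NRF-2) and of YY1. Promoters of 300 bases (250 before to 50 after the RefSeq start, GRCh38.p14) were found for 42 of the 55 members and searched on both strands for GCATGCGC (NRF1), CCGGAAG (ETS) and AAGATGG (YY1). The promoters of both called members and of 2 members that carry NRF1 and ETS letters, chosen after the search, are shown from 130 bases before to 20 after the start, 5′ to 3′ on the gene's strand, with the motif letters in capitals. The windows are chr2:42361198-42361347 (minus) for COX7A2L, chr1:111449334-111449483 (plus) for ATP5PB, chr21:25735035-25735184 (minus) for ATP5PF and chr11:112086743-112086892 (plus) for SDHD.
COX7A2L: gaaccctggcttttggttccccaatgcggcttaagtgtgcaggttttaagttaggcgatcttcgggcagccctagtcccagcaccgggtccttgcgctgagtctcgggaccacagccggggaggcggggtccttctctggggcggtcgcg
ATP5PB: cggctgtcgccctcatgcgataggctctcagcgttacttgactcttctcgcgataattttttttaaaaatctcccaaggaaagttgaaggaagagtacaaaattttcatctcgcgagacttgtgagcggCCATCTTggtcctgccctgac
ATP5PF: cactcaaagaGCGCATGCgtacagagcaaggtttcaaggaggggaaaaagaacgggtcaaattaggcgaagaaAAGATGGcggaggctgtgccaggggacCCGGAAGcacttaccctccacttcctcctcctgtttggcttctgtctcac
SDHD: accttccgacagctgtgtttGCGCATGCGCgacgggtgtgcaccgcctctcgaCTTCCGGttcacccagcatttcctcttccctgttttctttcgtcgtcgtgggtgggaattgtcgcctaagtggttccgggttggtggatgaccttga
The COX7A2L promoter held none of the 3 motifs and that of ATP5PB held YY1 letters only, read on the other strand, at the start site.

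The motifs were more frequent in the members' promoters than in promoters at large, which is described here without a test. NRF1 letters were in 9 of 42 members (21.4%), against 6.06% of the promoters of tested protein-coding genes and 3.27% of all promoters. ETS letters were in 17 members (40.5%), against 21.0% and 10.7%. YY1 letters were in 9 members (21.4%), against 8.26% and 6.06%. Among the tested members, the 9 with NRF1 letters had a median log2 difference of 0.37 and the 28 without 0.09. The medians over all tested protein-coding genes were 0.05 with the NRF1 letters and 0.02 without. For YY1 letters the medians were 0.27 in the 9 tested members with them and 0.07 in the 28 without. Over all tested protein-coding genes they were 0.04 with YY1 letters and 0.02 without.

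**Figure D1:**
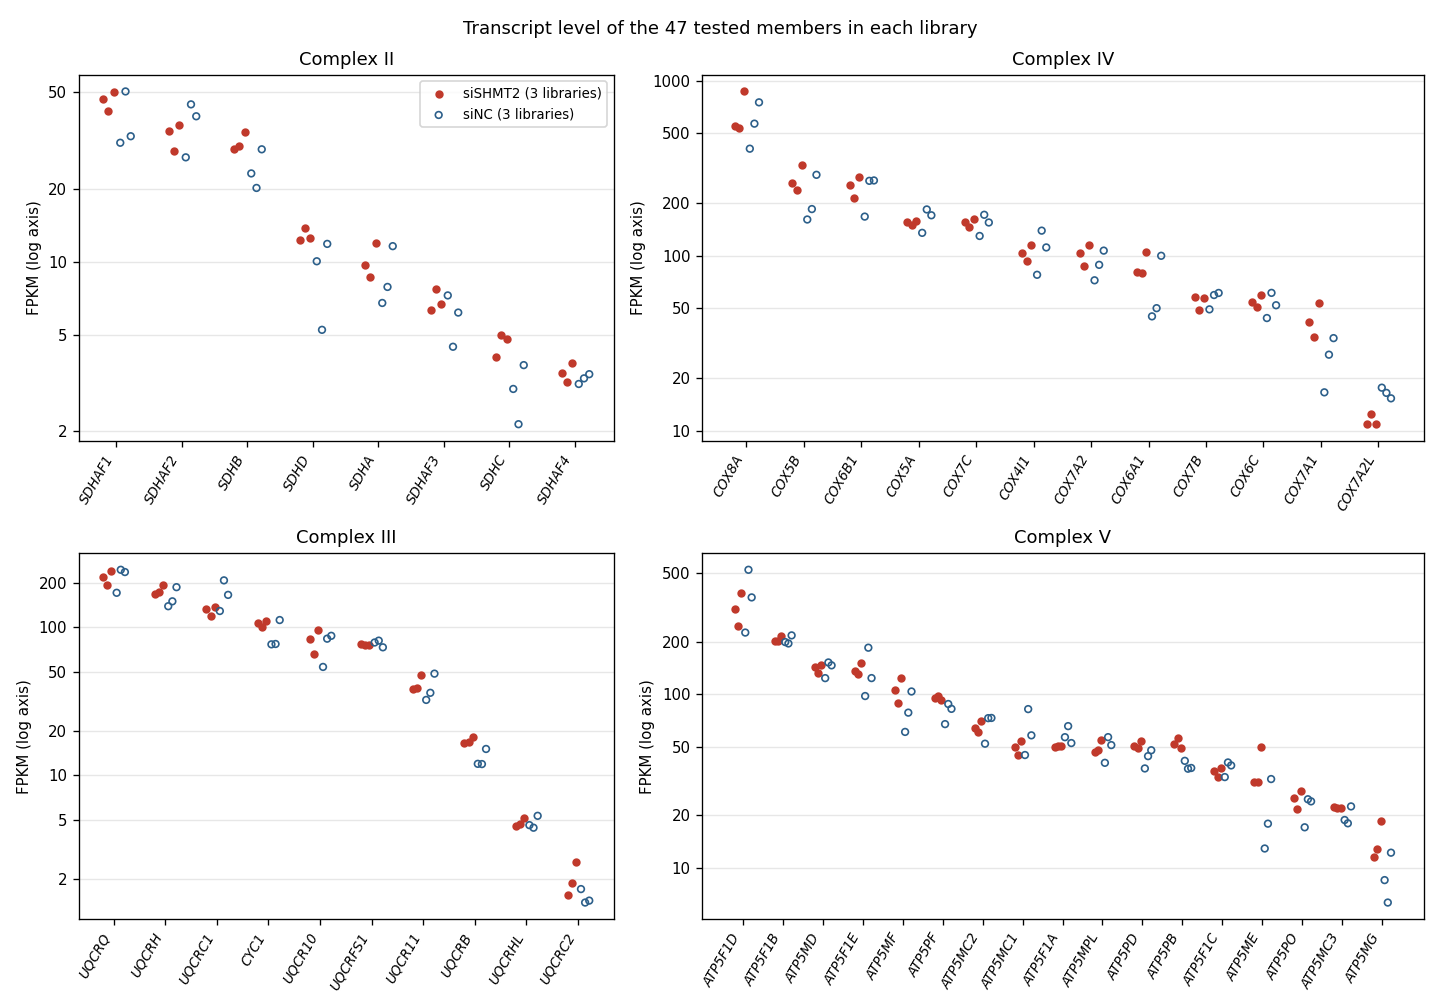
FPKM (log axis) of the 47 tested members in each of the 6 libraries, by complex and in order of mean level, with siSHMT2 as filled and siNC as open points. The points of the 2 groups interleave for most members and separate for 10, among them the called COX7A2L (siSHMT2 below siNC) and ATP5PB (siSHMT2 above siNC) and the uncalled SDHB, SDHC, SDHD, UQCRB, COX7A1, ATP5F1A, ATP5PF and ATP5PD.

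Complex II showed the highest median of the 4 complexes, 0.26 on the log2 scale over its 8 genes (7 positive, 1 negative), but none of its genes passed the test. With 0 calls by limma on FPKM (against 15.9% of all tested genes), 2 of the 8 had an unadjusted p under 0.05 (against 30.3%). Limma voom on recovered reads called 1 of the 8, SDHC. Over all 10865 tested genes voom called 904 higher and 843 lower. The median over all tested genes was 0.02. SDHC and SDHD anchor the complex in the membrane and hold its heme and coenzyme Q site. SDHC had 4.05, 5.00 and 4.83 FPKM in siSHMT2 cells, against 2.99, 2.14 and 3.75 FPKM in siNC cells (log2 difference 0.52, SE 0.160, limma adjusted p = 0.0643). SDHD had 12.3, 13.8 and 12.6 FPKM in siSHMT2 cells, against 10.1, 5.24 and 11.9 FPKM in siNC cells (log2 difference 0.53, SE 0.244, limma adjusted p = 0.195). For both anchors the lowest siSHMT2 library was above the highest siNC library, and siNC replicate 2 was the lowest of the 6.

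The catalytic subunits of complex II are SDHA, which carries the flavin, and SDHB, which carries the iron-sulfur clusters. SDHB had 29.3, 29.9 and 34.2 FPKM in siSHMT2 cells, against 23.2, 20.2 and 29.1 FPKM in siNC cells, so the groups nearly touched without overlapping (log2 difference 0.37, SE 0.148, limma adjusted p = 0.142). SDHA had 9.74, 8.66 and 11.97 FPKM in siSHMT2 cells and 6.77, 7.88 and 11.6 FPKM in siNC cells, which overlapped (log2 difference 0.21, limma adjusted p = 0.515). Its value is uncertain, because near-identical pseudogenes carried reads equal to 77.9% of its own, all of them on SDHAP1 and SDHAP3. The assembly factors SDHAF1, SDHAF2, SDHAF3 and SDHAF4 help insert the flavin and the iron-sulfur clusters. Their log2 differences ran from -0.13 (SDHAF2) to 0.31 (SDHAF1), and the groups overlapped for all 4. SDHAF1 had 47.02, 42.1 and 50.2 FPKM in siSHMT2 cells, against 31.01, 50.5 and 32.99 FPKM in siNC cells, so siNC replicate 2 lay above all siSHMT2 libraries. Without that library its log2 difference was 0.52 (limma adjusted p = 0.0246).

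Complex III had 8 positive and 2 negative differences among its 10 genes, with a median of 0.12, and none passed the test. Of the 10, 1 had an unadjusted p under 0.05 (against 30.3% of all tested genes), UQCRB, which was also the 1 gene that limma voom called. UQCRB, a small subunit near the coenzyme Q site, had 16.5, 16.7 and 18.3 FPKM in siSHMT2 cells, against 11.97, 11.93 and 15.1 FPKM in siNC cells (log2 difference 0.38, SE 0.118, limma adjusted p = 0.0651). All siSHMT2 values of UQCRB were above all siNC values. Of the electron carriers, CYC1 (cytochrome c1) had 107, 99.9 and 111 FPKM in siSHMT2 cells and 76.8, 77.3 and 112 FPKM in siNC cells (log2 difference 0.28, limma adjusted p = 0.318), so siNC replicate 3 was as high as the siSHMT2 libraries. UQCRFS1, the Rieske iron-sulfur protein, varied little, with 77.1, 76.5 and 76.3 FPKM in siSHMT2 cells against 79.1, 81.4 and 73.4 FPKM in siNC cells. Its log2 difference of -0.02 had a 95% interval of -0.27 to 0.22, and its sign turned under 5 of 17 alternative settings.

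The core proteins of complex III, which face the matrix, had differences of opposite sign, and neither was called. UQCRC1 had 132, 119.7 and 138 FPKM in siSHMT2 cells, against 129, 208 and 166 FPKM in siNC cells (log2 difference -0.34, SE 0.183, limma adjusted p = 0.264). Its groups overlapped through siNC replicate 1, without which the log2 difference was -0.51 (limma adjusted p = 0.0480). UQCRC2 was near the filter, at 1.55 to 2.59 FPKM in siSHMT2 cells and 1.38 to 1.71 FPKM in siNC cells (log2 difference 0.25, limma adjusted p = 0.310). The other small subunits UQCRH, UQCRQ, UQCR10 and UQCR11 had log2 differences of 0.01 to 0.17 with overlapping groups. UQCRQ, the most abundant of the complex per gene length, had 220.5, 193 and 239 FPKM in siSHMT2 cells and 171, 245 and 237 FPKM in siNC cells. UQCRHL, a paralog of UQCRH, was at 4.55 to 5.19 FPKM and 4.43 to 5.33 FPKM.

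Complex IV had COX7A2L as its single call, and its 12 tested genes had a median log2 difference of 0.10 (8 positive, 4 negative). The 3 most abundant were COX8A, COX5B and COX6B1. COX8A, a small membrane subunit, had 549, 534 and 867 FPKM in siSHMT2 cells and 408, 568 and 751 FPKM in siNC cells (log2 difference 0.18, SE 0.276, limma adjusted p = 0.704). COX5B, which binds zinc on the matrix side, had 261, 238 and 331 FPKM in siSHMT2 cells and 161, 185 and 289.6 FPKM in siNC cells (log2 difference 0.42, SE 0.238, limma adjusted p = 0.291). In both genes the libraries of a group spread by more than the groups differed. COX6B1, on the side where cytochrome c docks, averaged 250.2 ± 34.8 FPKM in siSHMT2 cells and 235 ± 58.4 FPKM in siNC cells (SD, n = 3 each; log2 difference 0.12). COX4I1, the large nuclear subunit to which ATP binds, averaged 104 ± 11.1 FPKM in siSHMT2 cells and 109 ± 30.7 FPKM in siNC cells (SD, n = 3 each; log2 difference -0.04, limma adjusted p = 0.920). COX5A, COX6C, COX7A2, COX7B and COX7C had log2 differences between -0.06 and 0.20, all with overlapping groups.

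The ubiquitous COX6A1 had 80.6, 79.2 and 105 FPKM in siSHMT2 cells and 45.0, 50.2 and 99.9 FPKM in siNC cells (log2 difference 0.51, SE 0.288, limma adjusted p = 0.282). Here siNC replicate 3 stood apart from the other siNC libraries, and without it the log2 difference was 0.87 (limma adjusted p = 0.0242). That was the 1 call of COX6A1 in 17 alternative settings. Library weights estimated by limma were 2.68 for siNC replicate 3, against 0.305 and 0.263 for siNC replicates 1 and 2. With these weights the log2 difference of COX6A1 was -0.07 (limma adjusted p = 0.824). A processed pseudogene, COX6A1P2, carried reads equal to 13.2% of those of COX6A1, with a log2 difference of -0.09.

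Several complex IV subunits exist as a ubiquitous form and a form best known from muscle, lung or testis. COX7A1, the heart and muscle form of subunit VIIa, was expressed here next to the ubiquitous COX7A2. COX7A1 had 41.8, 34.5 and 53.6 FPKM in siSHMT2 cells, against 16.6, 27.2 and 33.8 FPKM in siNC cells (log2 difference 0.76, SE 0.262, 95% interval 0.15 to 1.36, limma adjusted p = 0.0927). The siSHMT2 minimum exceeded the siNC maximum by less than 1 FPKM. COX7A1 made up 28.7%, 28.3% and 31.8% of the summed FPKM of COX7A1 and COX7A2 in siSHMT2 cells, against 18.6%, 23.5% and 24.0% in siNC cells, with no overlap of the groups. The height of this share depends on the lengths in the table, which are 0.769 times the longest coding transcript for COX7A1 and 2.10 times for COX7A2 in every library. The call of COX7A1 depended on scaling: limma adjusted p was 0.0297 after rescaling to TPM, 0.0417 with FPKM from read sums and 0.0315 by voom.

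The other tissue forms were listed below 1 FPKM, some at 0. COX7B2 had 0.0764, 0.886 and 0.542 FPKM in siSHMT2 cells and 0.350, 0.0845 and 0.467 FPKM in siNC cells, and COX6B2 did not exceed 0.101 FPKM in any library. COX4I2, COX6A2 and COX8C were listed at 0 in all 6 libraries. These 5 genes lay below the filter and were not tested. A listed 0 need not mean that a transcript was missing: SURF1, a complex IV assembly factor, and NDUFA6, a complex I subunit, which cells with a respiratory chain use, were also listed at 0 in all 6 libraries, and COX8C and COX6A2 overlap other genes.

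**Figure D2:**
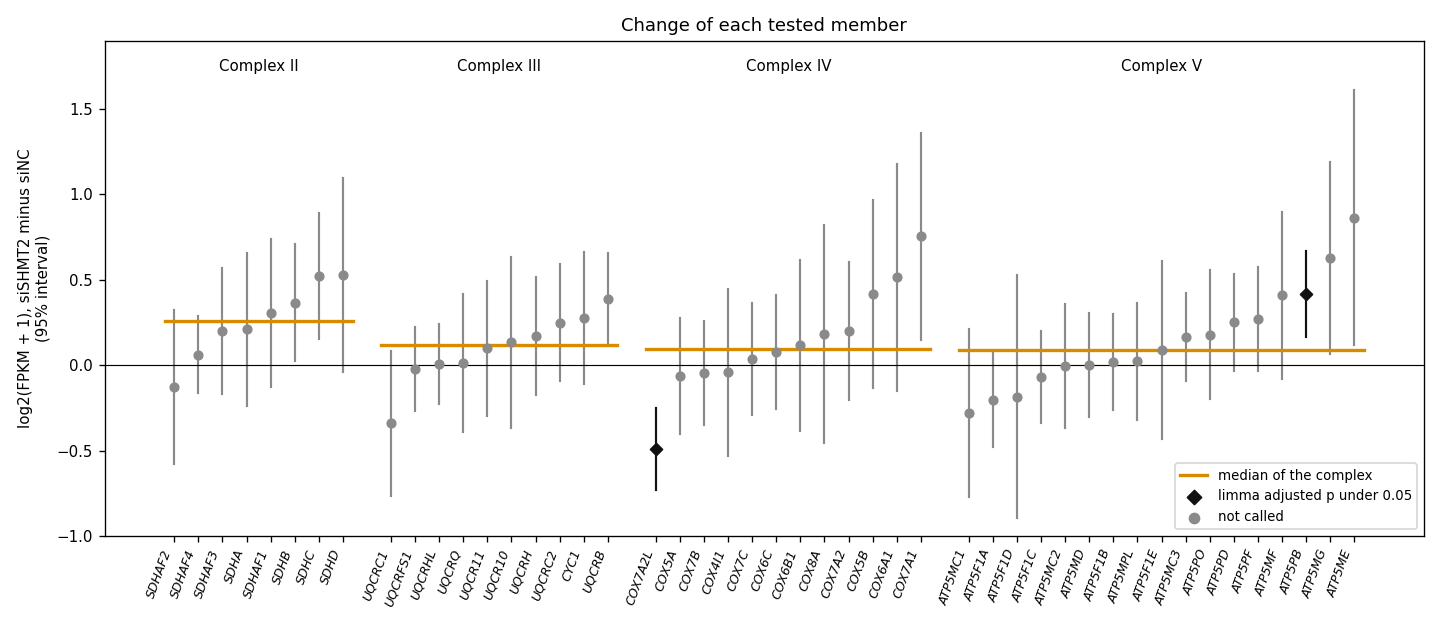
Difference in log2(FPKM + 1), siSHMT2 minus siNC, of each tested member with its 95% limma interval, ordered within each complex, and the median of each complex as a horizontal line. COX7A2L and ATP5PB (diamonds) are the 2 members with an adjusted p under 0.05, and most other intervals include 0.

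Complex V had ATP5PB as its single call among 17 tested genes, with a median log2 difference of 0.09 (12 positive, 5 negative). The catalytic head was close to even. ATP5F1B, the beta subunit with the catalytic sites, had 204, 203 and 218 FPKM in siSHMT2 cells and 201, 197 and 219 FPKM in siNC cells, with a log2 difference of 0.02 and a 95% interval of -0.26 to 0.30. ATP5F1A, the alpha subunit, had 49.5, 50.7 and 50.5 FPKM in siSHMT2 cells, against 56.6, 65.6 and 52.4 FPKM in siNC cells. All its siSHMT2 libraries lay below all siNC libraries, but the difference did not pass the test (log2 difference -0.20, SE 0.118, limma adjusted p = 0.298).

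All 4 tested peripheral stalk genes had a positive difference (median 0.26), as did all 5 small membrane subunits (median 0.41). The groups separated for 0 of the membrane subunits and 3 of the stalk genes, against 36.4% of all tested genes. Besides ATP5PB, ATP5PF (subunit F6) had 95.8, 97.98 and 92.4 FPKM in siSHMT2 cells, against 67.4, 88.1 and 82.6 FPKM in siNC cells (log2 difference 0.27, SE 0.132, limma adjusted p = 0.215). ATP5PD (subunit d) had 50.6, 49.1 and 53.6 FPKM in siSHMT2 cells, against 37.4, 44.0 and 47.6 FPKM in siNC cells (log2 difference 0.25, SE 0.122, limma adjusted p = 0.217). In both genes the groups did not overlap, and siNC replicate 1 was the lowest library. ATP5PO, the subunit that gives the synthase its oligomycin sensitivity, had overlapping groups (log2 difference 0.18, limma adjusted p = 0.511). ATP5PD overlaps KCTD2 on the opposite strand, and KCTD2 had a log2 difference of 0.44 (limma adjusted p = 0.0664), at 13.9 to 15.3 FPKM in siSHMT2 cells and 9.48 to 13.1 FPKM in siNC cells. The part of KCTD2 reads in the ATP5PD value was not tested.

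The small membrane subunits of complex V, some of which sit where synthase dimers meet, included the member with the largest difference of the 47, ATP5ME. ATP5ME (subunit e) had 31.1, 31.3 and 49.95 FPKM in siSHMT2 cells and 12.9, 17.9 and 32.4 FPKM in siNC cells (log2 difference 0.86, SE 0.322, 95% interval 0.12 to 1.61, limma adjusted p = 0.115). ATP5MG (subunit g) had 11.4, 12.7 and 18.6 FPKM in siSHMT2 cells and 8.46, 6.27 and 12.2 FPKM in siNC cells (log2 difference 0.63, SE 0.242, limma adjusted p = 0.126). In both genes replicate 3 was the highest of its group in both groups, and it made the groups overlap. Without siNC replicate 3 ATP5ME had a log2 difference of 1.21 (limma adjusted p = 0.0287). With library weights the log2 differences were 0.23 for ATP5ME and 0.15 for ATP5MG (limma adjusted p = 0.482 and 0.569). Of 17 alternative settings, 3 called ATP5ME and 1 called ATP5MG. ATP5MF (subunit f) had a log2 difference of 0.41 with overlapping groups, while ATP5MD and ATP5MPL had log2 differences of 0.00 and 0.02 with 95% intervals of -0.30 to 0.30 and -0.32 to 0.37.

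The rotor of the synthase is the central stalk (ATP5F1C, ATP5F1D, ATP5F1E) on a ring of c subunits, which 3 genes encode as the same mature protein. ATP5F1D, the most abundant tested gene of the complex per gene length, had 310.3, 248 and 386 FPKM in siSHMT2 cells and 228, 525 and 364 FPKM in siNC cells (log2 difference -0.18, SE 0.306). The siNC libraries of ATP5F1D spread 2.31-fold, more than the groups differed. ATP5F1C and ATP5F1E had log2 differences of -0.07 and 0.09 with overlapping groups.

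Of the c ring genes, ATP5MC1 had 49.5, 44.4 and 53.8 FPKM in siSHMT2 cells and 44.7, 82.3 and 58.0 FPKM in siNC cells (log2 difference -0.28, SE 0.212, limma adjusted p = 0.426). ATP5MC2 and ATP5MC3 had log2 differences of 0.00 and 0.16. The summed FPKM of the 3 genes was made up of 36.0 ± 1.02% ATP5MC1, 47.7 ± 0.542% ATP5MC2 and 16.3 ± 1.05% ATP5MC3 in siSHMT2 cells, and of 41.3 ± 5.37%, 44.9 ± 2.74% and 13.8 ± 3.05% in siNC cells (SD, n = 3 each). The ATP5MC1 share was 34.9% to 36.8% in siSHMT2 cells and 37.8% to 47.5% in siNC cells. The lengths in the table are 4.26 times the longest coding transcript for ATP5MC1, 2.05 times for ATP5MC2 and 1.24 times for ATP5MC3, so the shares do not rank the 3 genes. A processed pseudogene, ATP5MC1P4, with reads equal to 2.70% of those of ATP5MC1, fell to 4.95, 4.38 and 7.46 FPKM in siSHMT2 cells, against 8.68, 13.5 and 14.4 FPKM in siNC cells (log2 difference -0.998, limma adjusted p = 0.0216). Without siNC replicate 2 or 3, or siSHMT2 replicate 1 or 2, its adjusted p was between 0.0571 and 0.0855, and without the filter it was 0.102.

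The remaining complex V members could not be assessed. ATP5IF1, the inhibitor that stops the synthase from running backwards, and ATP5MGL were listed at 0 in all 6 libraries. ATP5IF1 is widely expressed in human cells and overlaps an antisense gene, AL353622.1, also listed at 0, and ATP5MGL overlaps CYB5R3 on the same strand, so these zeros are no measure of low expression. ATP5MF-PTCD1, a readthrough of neighbouring genes, had 0.0436, 0 and 0.111 FPKM in siSHMT2 cells and was listed at 0 in siNC cells.

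The positive tilt of the members moved with single libraries, siNC replicate 1 above all. Of 47 tested members 35 had a positive difference (74.5%, against 52.9% of all tested genes), with a median of 0.13. In siNC replicate 1 the members lay at a median of -0.29 from their own 6-library mean on the log2 scale, and 29 of the 47 had their lowest value there. The median position of all tested genes in that library was -0.02. Members took 0.996%, 0.976% and 1.09% of all reads in siSHMT2 cells, and 0.833%, 0.993% and 0.999% in siNC cells. Without siNC replicate 1 the median over the members was 0.00, that of complex III was -0.01 and that of complex IV -0.06, whereas complex II stayed at 0.26 and complex V was at 0.00. Without siSHMT2 replicate 3, in which 18 members had their highest value, the median over the members was 0.02.

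**Figure D3:**
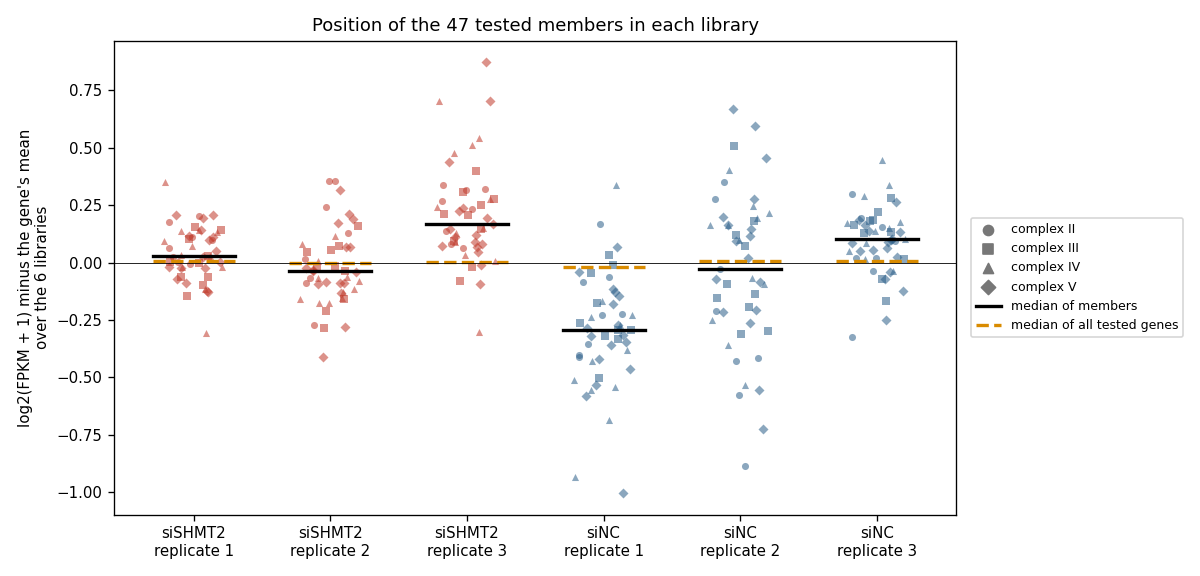
Value of each tested member in each library as log2(FPKM + 1) minus the gene's mean over the 6 libraries, with the median of the members (solid line) and of all tested genes (dashed line). The members sit low in siNC replicate 1 (median -0.29) and high in siSHMT2 replicate 3 (median 0.17), while all tested genes stay near 0.

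**Figure D4:**
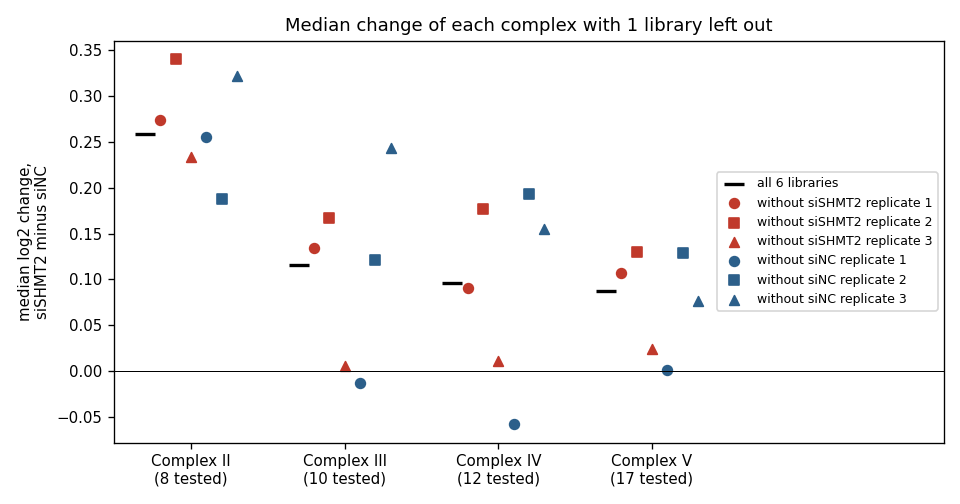
Median log2 difference (siSHMT2 minus siNC) of the tested members of each complex with all 6 libraries (bar) and with each library left out in turn (points). Complex II stays positive throughout, and complexes III and IV turn negative without siNC replicate 1.

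The members varied more among the siNC than among the siSHMT2 libraries. The median SD of log2(FPKM + 1) was 0.119 in siSHMT2 cells and 0.283 in siNC cells, and the SD was larger in siNC for 43 of the 47 members. Over all tested genes the median SD was 0.105 in siSHMT2 cells and 0.191 in siNC cells. Intervals of 42 members lay within a 2-fold change in either direction, and those of 23 lay within 1.5-fold. For the other members a change of 1.5-fold or more in at least 1 direction lay inside the interval. Bulk RNA cannot tell fewer cells with a transcript from less transcript per cell.

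Transcripts of the mitochondrially encoded partners leaned the other way. The 6 genes for subunits of complexes III to V (MT-CYB, MT-CO1, MT-CO2, MT-CO3, MT-ATP6 and MT-ATP8) all had negative differences, with a median of -0.36. Of the 6, 1 passed the test (16.7%, against 15.9% of all tested genes). MT-CYB, cytochrome b of complex III, had 2842, 2014 and 2233 FPKM in siSHMT2 cells, against 3809, 4146 and 3656 FPKM in siNC cells (log2 difference -0.72, SE 0.201, limma adjusted p = 0.0473). Its adjusted p was 0.0730 to 0.195 without any 1 library other than siNC replicate 1, and 0.521 without the filter on low genes. MT-CO3 and MT-ATP6 also had groups that did not overlap, with log2 differences of -0.34 and -0.44 (limma adjusted p = 0.289 and 0.233). The groups thus did not overlap for 3 of the 6 genes (50%), against 36.4% of all tested genes. Mitochondrially encoded transcripts as a whole took 5.47%, 4.54% and 4.54% of reads in siSHMT2 cells and 6.01%, 5.53% and 5.56% in siNC cells.

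The genes that help build complex IV were called in a smaller share than all tested genes, 10.7% against 15.9%, but included a copper chaperone and a heme A enzyme that rose. Of 28 tested assembly factors and associated proteins 3 rose (10.7%, against 6.07% of all tested genes) and 0 fell (against 9.85%), with a median of 0.16. COX17, the copper chaperone of complex IV, had 24.4, 22.9 and 27.1 FPKM in siSHMT2 cells, against 13.95, 14.01 and 12.9 FPKM in siNC cells (log2 difference 0.82, SE 0.104, limma adjusted p = 0.00217). COX15, which makes heme A, had 5.63, 6.24 and 5.92 FPKM in siSHMT2 cells, against 3.33, 3.88 and 3.79 FPKM in siNC cells (log2 difference 0.57, limma adjusted p = 0.00683). The assembly factor PET117 had 2.98, 4.93 and 5.99 FPKM in siSHMT2 cells, against 0.993, 1.56 and 2.43 FPKM in siNC cells (log2 difference 1.08, limma adjusted p = 0.0257). The calls of COX17 and COX15 held with each library left out, and that of PET117 was lost without siNC replicate 2 or siSHMT2 replicate 2 or 3 (adjusted p = 0.0598 to 0.0909). With library weights the log2 difference of PET117 was 0.52 (adjusted p = 0.118), and without the filter on low genes its adjusted p was 0.121.

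Of 7 tested genes listed as assembly factors of complex V, 2 were called (28.6%, against 15.9% of all tested genes). ATPSCKMT, a methyltransferase of the c subunit, rose (log2 difference 0.60, limma adjusted p = 0.0257). DMAC2, listed here but known as a factor of complex I assembly, fell (log2 difference -0.42, limma adjusted p = 0.0362). ATPSCKMT was not called without siNC replicate 2 or 3 or siSHMT2 replicate 2 or 3 (adjusted p = 0.0536 to 0.0929), nor with TPM (adjusted p = 0.0588) or without the filter on low genes (adjusted p = 0.0968). DMAC2 was not called without siNC replicate 3 or any 1 of the siSHMT2 replicates (adjusted p = 0.0869 to 0.162). DMAC2 was also not called with TPM, read sums, voom or no filter (adjusted p = 0.0614 to 0.101), and it was called in 8 of 17 alternatives in all. Of 10 tested assembly factors of complex III, 0 were called (against 15.9% of all tested genes). Of these 10, 3 had an unadjusted p under 0.05 (against 30.3% of all tested genes), and limma voom called 1, UQCC3.

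Complex I passes electrons from NADH to coenzyme Q. Of 30 tested nuclear genes of complex I, 3 rose (10%, against 6.07% of all tested genes) and 0 fell (against 9.85%), with a median of 0.23. Among them, the accessory subunits NDUFA5 and NDUFB5 had log2 differences of 0.50 and 0.40 (limma adjusted p = 0.0226 and 0.0429). NDUFA5 lost its call without any 1 siSHMT2 replicate (adjusted p = 0.0650 to 0.105) and NDUFB5 without any 1 library other than siNC replicate 1 (adjusted p = 0.0518 to 0.146). Both also lost it with TPM (adjusted p = 0.0580 for NDUFA5 and 0.0981 for NDUFB5) and without the filter (adjusted p = 0.0744 and 0.109), and NDUFB5 with read sums (adjusted p = 0.0642) and without the intensity trend (adjusted p = 0.0533). Of 14 tested cytochrome c and coenzyme Q genes 2 were called (14.3%, against 15.9% of all tested genes). CYCS (cytochrome c, the carrier between complexes III and IV) rose by 0.49 and COQ10A by 0.57 on the log2 scale (limma adjusted p = 0.0231 and 0.0121). CYCS lost its call without any 1 siSHMT2 replicate (adjusted p = 0.0908 to 0.0948) and COQ10A without siSHMT2 replicate 2 or 3 (adjusted p = 0.0574 and 0.0609). The call of CYCS was also lost with TPM (adjusted p = 0.0506) and without the filter (adjusted p = 0.0567).

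Of 11 tested transcription factors and coactivators of respiratory genes, 1 was called (9.09%, against 15.9% of all tested genes). GABPA, the DNA-binding subunit of GABP, fell to 1.73, 2.02 and 1.99 FPKM in siSHMT2 cells, against 3.77, 2.87 and 3.55 FPKM in siNC cells (log2 difference -0.59, SE 0.115, limma adjusted p = 0.0134). Without siSHMT2 replicate 1 its adjusted p was 0.0695, with TPM 0.0789 and without the filter 0.0552. GABPA overlaps the start of ATP5PF on the opposite strand. ATP5PF, whose promoter with ETS letters is printed above, had a positive difference that was not called (limma adjusted p = 0.215). The 17 tested members with ETS letters had a median of 0.20 and the 20 without 0.03, against 0.06 and 0.01 over all tested protein-coding genes. A link between the fall of GABPA and these members was not tested.

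**Figure D5:**
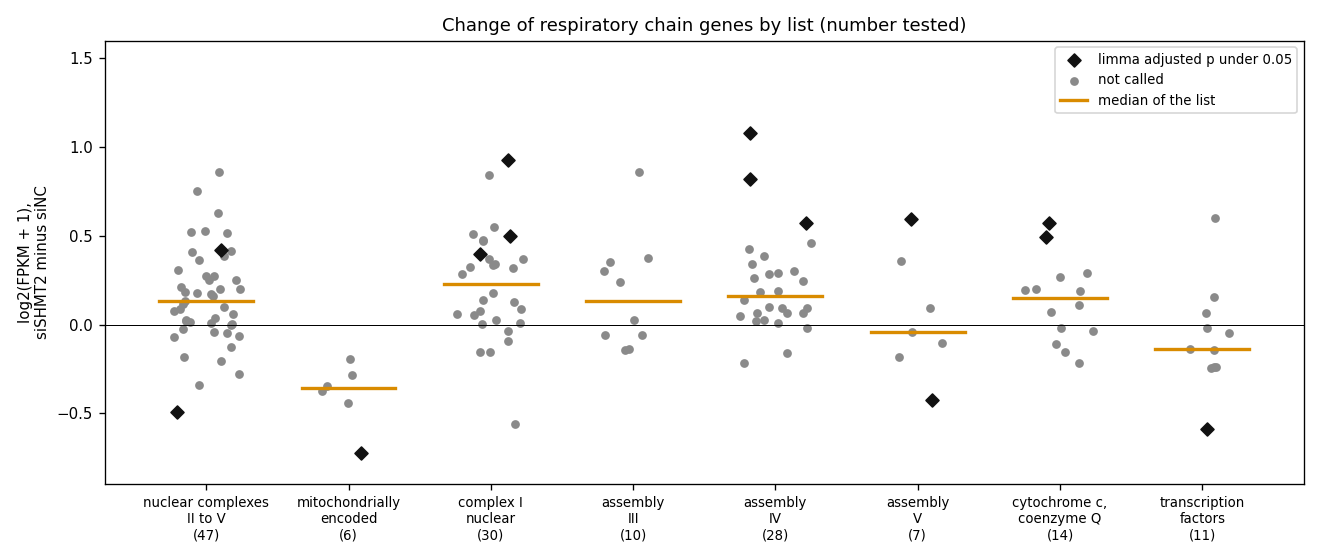
Log2 difference (siSHMT2 minus siNC) of the 47 tested nuclear members of complexes II to V and of the other tested genes of the respiratory chain by list, with the median of each list as a line and genes with an adjusted p under 0.05 as diamonds. The 6 mitochondrially encoded genes lie below 0 (median -0.36), and the nuclear members scatter around a median of 0.13.

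Earlier work on these same fold changes had picked out the 7-base words GACTTTA and ACTTTAA in 3′ untranslated regions (3′ UTRs) of lower genes, so the words are no independent measure here. In the longest GENCODE 3′ UTR, 8 of 47 tested members held a word (17.0%), against 25.6% of 9413 tested protein-coding genes, 58.1% of those called lower and 11.1% of those called higher. A longer 3′ UTR has more room for a word, and the median length was 449 bases in the members, against 1574 bases in all tested protein-coding genes, 2106 bases in those called lower and 1668.5 bases in those called higher. The shares were not adjusted for this length. The 8 were COX5A, UQCRFS1, COX6C, UQCRB, ATP5PB, ATP5MC3, SDHAF3 and SDHC, and their median log2 difference was 0.18. Of these sites, those of ATP5PB and SDHC are shown with the word in capitals, 10 bases on each side, in the sense of the transcript.
ATP5PB: tcatatcattGACTTTAttattttagt
SDHC: tcttccaatcACTTTAAtatcttcaat
ATP5PB, which rose, thus held GACTTTA once (from base 540 of its 3′ UTR, chromosome 1). COX7A2L, which fell, held neither word in a 3′ UTR of 1881 bases. Among the called genes of the other lists, GABPA, which fell, held each word once, and DMAC2, which fell, held GACTTTA once. NDUFA5, which rose, also held each word once. COX15, COX17, PET117, ATPSCKMT, NDUFB5, CYCS and COQ10A, which rose, held neither.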

How the data were processed

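RNA of 6 LX2 libraries was measured, and the authors deposited FPKM of 60623 genes, with positions and lengths. HISAT2 2.0.5 and featureCounts 1.5.0-p3 are named, with build hg18, per the submitters' processing notes. Libraries were made with a SMARTer kit for mRNA, per the labels' protocols. Coordinates are those of the table: all 55 members overlapped their GENCODE 29 (GRCh38) gene and 25 had the same start and end, so they are not hg18. No source used here states strand use, and 33 members overlap another gene, 21 of them on the other strand. FPKM divides by the gene length in the table, up to 5.36 times the longest coding transcript (ATP5PD), and so understates such genes.

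FPKM times length gave whole reads in each library (100% of values within 0.02 of a whole number). The totals behind the FPKM were not the sums of these reads. They were 0.957 (siNC replicate 2) to 1.13 (siSHMT2 replicate 2) times those sums, and no source used here states how they were set. Genes averaging 1 FPKM or more were tested with limma 3.58.1 (R 4.3.3) on log2(FPKM + 1), variances moderated along the intensity trend, with Benjamini-Hochberg adjustment over all genes and 95% intervals from the moderated fit. Differences on this scale understate changes of low genes. The fits were also run on simulated counts, as a check of the code. Those counts had the same spread setting in both groups and no shifts of single libraries. The members here had both, so the simulation does not test their calls. Groups and replicate numbers came from the titles. Nothing says that replicates were separate cultures, and the p-values then reflect only library-to-library spread, which may be technical. Named genes were SHMT2, called members, the 3 most abundant and 3 most changed members of each complex, 10 preset subunits, tissue isoforms and up to 4 called genes of each pathway list. A gene that this rule names is not reported here. The remaining members are named to account for the whole list. Promoters are from RefSeq (GRCh38.p14), 3′ UTRs from GENCODE 29, and tables were handled in Python 3.11.15. Members, lists and motifs were chosen with earlier results of these data known.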

Additional observations from a re-analysis of the deposited data

How the results depend on the processing

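SHMT2 kept its call in each of 17 alternatives (pseudocount, filters, scalings, voom, biotype, moderation, library weights, replicate block and leaving out each library). The median of the members, 0.133 in the main fit, stayed positive in each but came close to 0 in some. It was 0.002 without siNC replicate 1, 0.017 with library weights and 0.024 without siSHMT2 replicate 3. Of 47 tested members 24 kept their sign in each (20 positive, 4 negative) and 37 were called in none. COX7A2L was called in 11 (adjusted p 0.00199 to 0.129) and ATP5PB in 9 (0.00235 to 0.158). The 1 member higher, ATP5PB, became COX7A1 with TPM, 0 with no filter, 3 with FPKM from read sums, 5 by voom, 2 among protein-coding genes, 2 with library weights and 0 to 4 with 1 library left out. The 1 member lower became 0 with TPM, read sums or voom, 2 with library weights and 0 to 2 with 1 library left out. Over all genes, the 659 higher became 333 with no filter, 1827 with library weights and 229 to 729 with 1 library left out. The 1070 lower became 603 with no filter, 618 with the filter at 5 FPKM, 620 with TPM, 1976 with library weights and 498 to 1132 with 1 library left out. The median over all genes was 0.11 with TPM and 0.10 by voom; the members' medians were then 0.23 and 0.22. With library weights the median was 0.10 in complex II, -0.04 in complex III and -0.05 in complex IV. The cause of these shifts was not tested. Over all tested genes, deviations of same-numbered replicates correlated at -0.018, -0.349 and 0.243, and those of differently numbered replicates at -0.483 to 0.496. The members stood highest in replicate 3 of both groups (median deviation 0.17 in siSHMT2 and 0.10 in siNC). Whether same-numbered libraries shared a batch was not tested. With a replicate block 374 genes were higher and 696 lower, 2 members (ATP5ME and ATP5MG) were higher and 0 lower. COX7A2L (adjusted p = 0.0555), ATP5PB (0.110), MT-CYB, ATPSCKMT, DMAC2, NDUFA5, NDUFB5 and CYCS (0.0564 to 0.121) were then not called. The 3 libraries per group, of at least 14722344 reads each, limit the precision.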
